A study of Mus musculus with 24 samples.

Results

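The genes described here are 37 transcription factor genes, among them 1 long non-coding RNA, that mark the nuclei of the hypothalamus and the forebrain next to it. They were chosen by symbol: every row of the count table whose Ensembl gene ID carries one of the listed names was taken, from a table of 55471 genes of which 18992 passed the expression filter and were tested. All 37 members passed. A second row named Dlx6os1 (ENSMUSG00000098326, chr6:6871488-6871633 on mm10) had 0 counts in every library and was not used. The members give a reading of which nuclei each dissection held, as well as of any change in the neurons themselves. In bulk tissue, fewer cells of a type and less RNA per cell cannot be told apart.

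Hypothalamic RNA was sequenced from 24 wild-type male C57BL6/J mice, 18 weeks old, fed chow, housed singly and fitted with a gastric catheter, with 1 library per mouse and 6 mice per group. Experimentally overfed mice (ExpOF) received a liquid diet with added sucrose into the stomach for 14 days, while control mice received sterile water at the same flow. ExpOF d14 and Control d14 mice were killed at the end of the infusion. ExpOF d14+3 and Control d14+3 mice were killed 3 days later, on day 17, after both had been infused with water. Every group held mice of a July and a September cohort, and RNA of each group was extracted in 2 rounds. The d14 and d14+3 mice were not killed on the same dates, so the day of the experiment and the day of dissection cannot be told apart. The study removed a Control d14 mouse for poor RNA quality. Control d14 replicate 4, of the September cohort, was therefore left out, so that 23 libraries remained, 5 of them Control d14. It was matched through the authors' mean expression, and its labelled RNA integrity number (RIN) of 9.8 was not low. Their totals ranged from 8928182 to 34848437 counts. The RIN was 9.20 ± 0.86 (SD, n = 5) in Control d14, 9.75 ± 0.14 (SD, n = 6) in ExpOF d14, 8.62 ± 1.1 (SD, n = 6) in Control d14+3 and 9.43 ± 0.45 (SD, n = 6) in ExpOF d14+3. In Control d14+3 it ran from 9.3 to 9.9 in extraction round 1 and from 7.2 to 7.9 in round 2. The RIN ranges of the rounds overlapped in the other groups. The hypothalamic label was checked against 16 neuropeptide and enzyme genes of that tissue: 15 were tested and summed to between 622.3 and 1510 CPM (counts scaled to a common library size with TMM factors) per library, while Kiss1 had 0 counts.

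Regional transcription factors divide the developing hypothalamus into territories and remain expressed in many of the adult neurons that arise there. Sim1, Otp and Pou3f2 are required for the neuroendocrine neurons of the paraventricular and supraoptic nuclei. Nkx2-1, Nkx2-4, Nr5a1, Fezf1, Tbx3, Hmx2, Hmx3, Bsx and Isl1 belong to the tuberal region, with Nr5a1 (steroidogenic factor) and Fezf1 in the ventromedial nucleus and Bsx, Tbx3 and Isl1 in the arcuate nucleus. Six3, Six6, Lhx1 and Vax1 mark the anterior region and the suprachiasmatic nucleus, Rax and Lhx2 the tanycytes of the ventricular wall, and Foxb1, Foxa1, Barhl1, Barhl2, Lmx1a and Lmx1b the mammillary and posterior region. Dlx1, Dlx2, Dlx5, Dlx6, Lhx6 and the antisense RNA Dlx6os1 belong to GABAergic neurons of the ventral forebrain. Nkx2-2, Lhx9, Meis2, Sox14, Onecut2, Prox1 and Nr2f2 are found in several territories, of which Lhx9, Sox14 and Prox1 are also known from the thalamus or its borders.

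Levels of different genes are compared here only per kilobase of exon. The highest was Otp, at 10.5 ± 2.1 CPM per kilobase (SD, n = 23), followed by Dlx1 at 7.78 ± 0.77 and Nkx2-1 at 5.71 ± 1.0. At the low end stood Barhl1 at 0.512 ± 0.14, Hmx2 at 0.488 ± 0.14 and Rax at 0.160 ± 0.052 CPM per kilobase. Otp exceeded Dlx1 in 22 of 23 libraries, Dlx1 exceeded Nkx2-1 in 23 and Hmx2 exceeded Rax in 23. Most other neighbours in the order did not differ beyond their spread: of the 36 neighbouring pairs, 34 changed places in at least 1 library. Each territory spanned a wide range of levels, as from Otp down to Sim1 (1.40 ± 0.46) among the neuroendocrine factors, or from Dlx1 down to Dlx6os1 (1.10 ± 0.35) among the GABAergic genes.

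**Figure D1:**
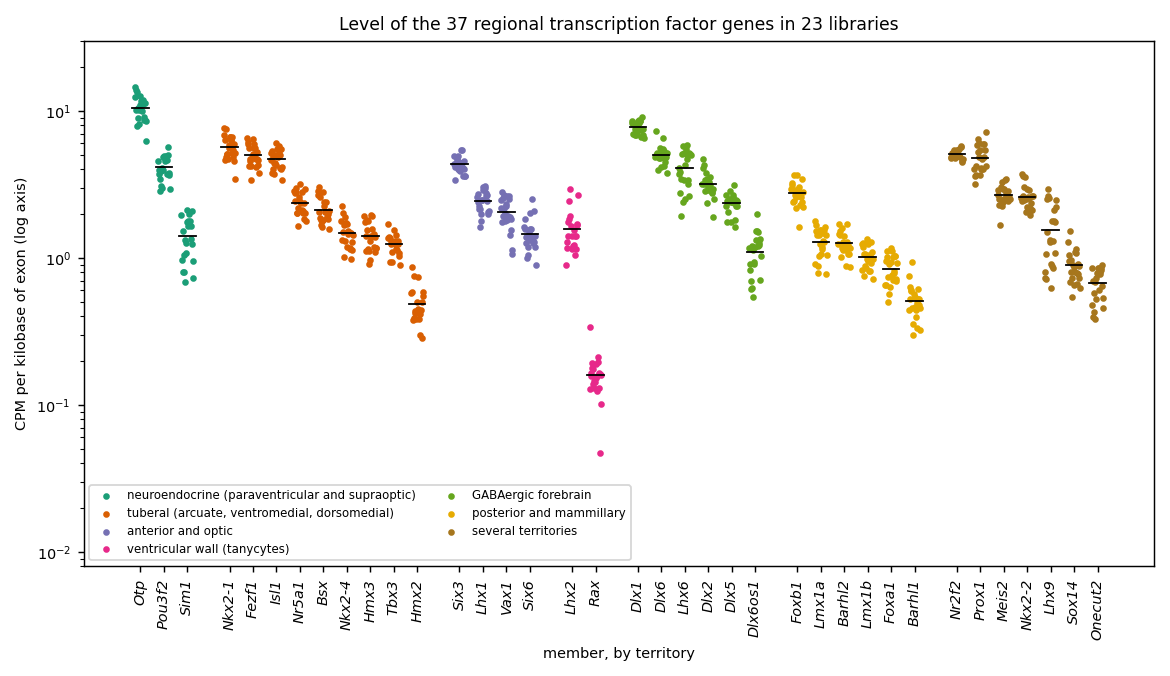
Level of each of the 37 genes in the 23 libraries, as CPM per kilobase of exon on a log axis, with genes grouped and coloured by territory. Each point is 1 library and the bar is the mean of the 23. Otp has the highest mean at 10.5, Rax the lowest at 0.160, and the points of Lhx9, Sim1 and Rax spread more than those of Nr2f2 and Dlx1.

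How far a gene differed between mice varied strongly among the members. Nr2f2 (COUP-TFII) was the most even, with a highest library 1.29 times the lowest, and Dlx1 followed at 1.38 times. At the other end were Lhx9 at 4.71 times and Rax at 7.21 times, the latter on as few as 6 counts in 1 library. The biological coefficient of variation, edgeR's estimate of the spread between mice of 1 group, was largest in Lhx9 (0.302), Sim1 (0.279), Lhx6 (0.273), Onecut2 (0.228) and Barhl1 (0.224). Among all genes tested these lay at percentiles 92.6, 90.8, 90.1, 84.1 and 83.6. Nr2f2 had the smallest among members, 0.0747 (percentile 12.1).

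By edgeR, members were called between the days and in no other comparison of the 23 libraries. Averaged over both diets, Prox1, Lhx9 and Lhx2 were higher on d14+3 than on d14, while the tuberal genes Bsx, Nkx2-1 and Fezf1, the neuroendocrine Otp, the anterior Lhx1 and the GABAergic Dlx1 were lower. In the Control mice 4 of 37 members were called at an adjusted p-value under 0.05 (edgeR's quasi-likelihood test, Benjamini-Hochberg over all genes), against 1.15% of all genes tested: Prox1 and Lhx9 were higher and Bsx and Otp lower on d14+3. In the ExpOF mice 0 of 37 were called, as were 0% of all genes. With no adjustment, 12 members had a p-value under 0.05 in Control mice, 9 lower and 3 higher on d14+3, and 16 in ExpOF mice, 13 lower and 3 higher. Among all genes, 12.7% passed that limit in Control mice (5.93% lower and 6.81% higher), and 7.79% in ExpOF mice (2.40% lower and 5.39% higher). Members were thus more often below the limit on the lower side than genes at large in both diets. The median log2 difference of the 37, d14+3 minus d14, was -0.19 in Control and -0.21 in ExpOF mice, where the medians over all genes were -0.01 and 0.004.

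The Control and ExpOF day differences share no library. Of the 37 members, 24 were lower on d14+3 in both, 3 were higher in both and 10 had opposite signs, so that 73.0% had the same sign, against 53.2% of all 18992 genes. With the day difference averaged over both diets, a contrast chosen after the data were seen, 9 members were called (3.67% of all genes, 0.795% lower and 2.87% higher). These are the 9 named above, 3 higher and 6 lower on d14+3. An unadjusted p-value under 0.05 was reached by 19 members, 16 of them lower, where all genes gave 13.7% (5.53% lower and 8.13% higher).

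**Figure D2:**
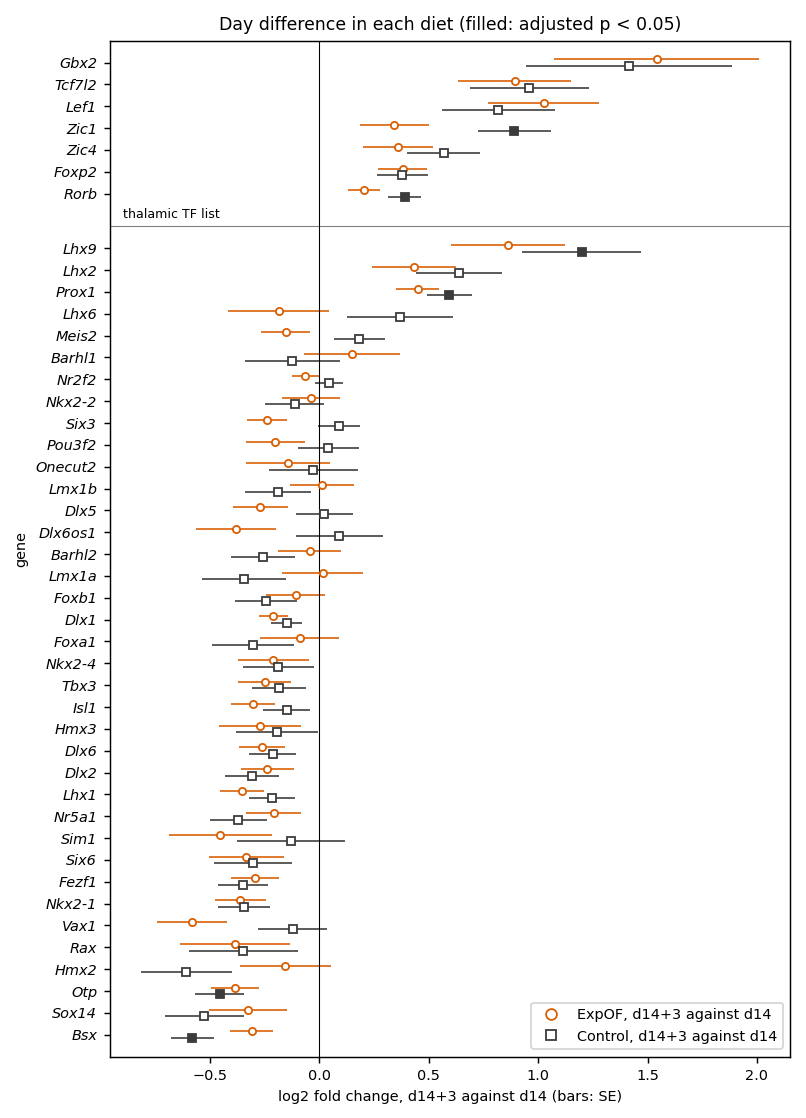
Log2 difference d14+3 minus d14 of each of the 37 genes in Control mice and in ExpOF mice, with standard errors from edgeR and filled symbols where the adjusted p is under 0.05, ordered by the size of the difference and set below the genes of the thalamic list. Most of the 37 genes lie below 0 in both diets, with medians of -0.19 and -0.21, while Lhx9 (1.20 and 0.86), Prox1 (0.59 and 0.45) and Lhx2 (0.64 and 0.43) lie above 0 in both.

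Prox1 encodes a homeobox factor known from the dentate gyrus and the thalamus. It measured 33.8, 26.8, 30.2, 30.7 and 35.5 CPM in the 5 Control d14 mice and from 41.1 through a median of 47.2 to 54.4 CPM in the 6 Control d14+3 mice. In ExpOF d14 the lowest, median and highest were 30.9, 33.8 and 39.5 CPM, and in ExpOF d14+3 35.4, 47.4 and 60.3 CPM. Every Control d14+3 mouse was above every Control d14 mouse, whereas the ExpOF groups overlapped. The log2 difference was 0.59 (SE 0.10, edgeR adjusted p = 0.00742) in Control mice and 0.45 (SE 0.099, adjusted p = 0.0701) in ExpOF mice, with two-sided exact permutation p-values of 0.00216 and 0.00433. Here and below, exact permutation p-values are unadjusted. They were computed only for the 3 members with the smallest edgeR p-value in each comparison between groups, so they are not separate support. It was positive in each cohort and diet, from 0.27 to 0.67.

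Lhx9, a LIM-homeobox factor of hypocretin neurons and of the developing thalamus, showed the widest range of the called members. Its 5 Control d14 values were 7.55, 6.90, 6.85, 10.0 and 14.1 CPM, and the 6 Control d14+3 values ran from 12.2 through a median of 24.2 to 27.9 CPM. ExpOF d14 mice had a lowest, median and highest of 5.93, 8.48 and 16.8 CPM, and ExpOF d14+3 mice 10.3, 18.5 and 23.7 CPM. Both pairs of groups overlapped, by 1 Control d14 mouse among the Control mice. The log2 difference was 1.20 (SE 0.27, edgeR adjusted p = 0.0278, exact permutation p = 0.0130) in Control mice and 0.86 (SE 0.26, adjusted p = 0.198) in ExpOF mice. Within cohort and diet it ran from 0.88 to 1.48. The related gene Lhx2 stood at a mean of 5.72 ± 1.4 (SD, n = 5) in Control d14, 5.40 ± 0.76 (SD, n = 6) in ExpOF d14, 8.94 ± 2.5 (SD, n = 6) in Control d14+3 and 7.34 ± 2.3 CPM (SD, n = 6) in ExpOF d14+3. Averaged over the diets, its log2 difference of 0.53 was called (edgeR adjusted p = 0.0255).

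Bsx encodes a homeobox factor needed for Npy and Agrp expression in arcuate neurons. Its level was 8.39, 7.96, 9.02, 6.06 and 7.67 CPM in Control d14, and 4.82, 5.32 and 5.48 CPM as lowest, median and highest in Control d14+3. The ExpOF d14 mice ranged from 6.07 through 6.88 to 8.31 CPM and the ExpOF d14+3 mice from 4.65 through 5.57 to 6.16 CPM. All Control d14+3 mice were below all Control d14 mice, and the ExpOF groups overlapped. The log2 difference was -0.58 (SE 0.10, edgeR adjusted p = 0.0067, exact permutation p = 0.00216) in Control mice and -0.31 (SE 0.097, adjusted p = 0.232) in ExpOF mice.

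Otp, the neuroendocrine homeobox factor, measured 36.1, 42.1, 39.9, 29.2 and 38.6 CPM in Control d14 and between 22.7 and 31.6 (median 27.4) CPM in Control d14+3. ExpOF d14 mice lay between 28.7 and 36.1 (median 33.5) CPM, and ExpOF d14+3 mice between 18.0 and 32.7 (median 24.9) CPM. Only 1 Control d14 mouse fell within the Control d14+3 range. The log2 difference was -0.46 (SE 0.11, edgeR adjusted p = 0.0447) in Control mice and -0.39 (SE 0.11, adjusted p = 0.148, exact permutation p = 0.00649) in ExpOF mice. It was negative in each cohort and diet, from -0.50 to -0.31.

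The Bsx and Prox1 calls in Control mice held without any 1 of the 23 libraries. The Lhx9 call was lost without Control d14 replicate 1, 2 or 3 or Control d14+3 replicate 1, 2, 3 or 4 (edgeR adjusted p between 0.0575 and 0.117). The Otp call was lost without Control d14 replicate 2, 3 or 6, Control d14+3 replicate 1, 2 or 4, ExpOF d14 replicate 2, 3, 5 or 6, or ExpOF d14+3 replicate 1, 2 or 4 (0.0504 to 0.167). All 4 were lost when only the Control groups were fitted, a fit in which 0 genes were called and 14 members had an unadjusted p-value under 0.05, and within either cohort alone.

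**Figure D3:**
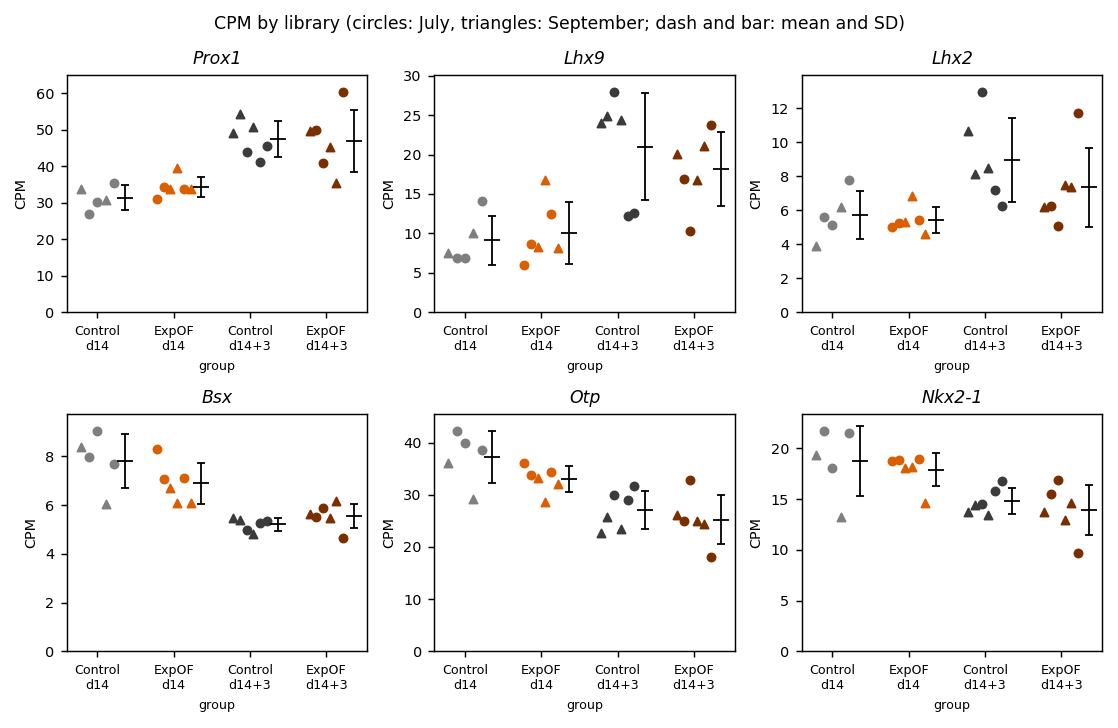
CPM of Prox1, Lhx9, Lhx2, Bsx, Otp and Nkx2-1 in each of the 23 libraries by group, with circles for July and triangles for September mice and a dash and bar for the mean and SD. The d14+3 mice sit higher than the d14 mice for the first 3 genes and lower for the last 3, in both diets and both cohorts on average.

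The 250 bases before a RefSeq start of the 4 genes called in Control mice are given here because these genes passed the test between the days within 1 diet. They are read on the coding strand from the GRCm38.p6 assembly (mm10), 5′ to 3′, with CCAAT or its reverse complement ATTGG in capitals. The windows are chr1:190170828-190171077 on the minus strand for Prox1, chr1:138842445-138842694 on the minus strand for Lhx9, chr9:40873877-40874126 on the plus strand for Bsx and chr13:94875386-94875635 on the plus strand for Otp.
Prox1: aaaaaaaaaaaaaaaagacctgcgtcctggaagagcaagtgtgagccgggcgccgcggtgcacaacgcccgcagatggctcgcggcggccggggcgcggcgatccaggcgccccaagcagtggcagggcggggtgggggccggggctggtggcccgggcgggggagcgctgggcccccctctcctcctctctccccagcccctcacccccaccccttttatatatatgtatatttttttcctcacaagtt
Lhx9: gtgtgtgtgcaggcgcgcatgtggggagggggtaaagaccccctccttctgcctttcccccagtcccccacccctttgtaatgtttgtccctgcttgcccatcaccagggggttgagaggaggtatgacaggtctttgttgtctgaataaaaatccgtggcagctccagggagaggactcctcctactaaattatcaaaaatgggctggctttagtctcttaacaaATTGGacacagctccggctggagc
Bsx: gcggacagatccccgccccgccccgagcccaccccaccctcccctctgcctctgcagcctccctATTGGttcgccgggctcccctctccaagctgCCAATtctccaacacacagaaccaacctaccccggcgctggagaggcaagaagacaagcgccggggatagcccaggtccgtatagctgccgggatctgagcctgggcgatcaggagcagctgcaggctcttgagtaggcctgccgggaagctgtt
Otp: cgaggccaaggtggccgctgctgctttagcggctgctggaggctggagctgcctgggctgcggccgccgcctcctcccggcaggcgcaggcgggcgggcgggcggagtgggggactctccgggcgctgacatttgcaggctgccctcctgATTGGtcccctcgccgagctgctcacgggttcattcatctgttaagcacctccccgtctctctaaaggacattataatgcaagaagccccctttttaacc
Bsx held 2 matches, starting 186 and 155 bases before the start, Otp 1 at 100 bases and Lhx9 1 at 24 bases, while these letters were not in the Prox1 window, nor in that of the other RefSeq start of Prox1 (chr1:190169516-190169765, not shown). The Prox1 window shown is that of the start nearest to the 5′ end in the count table. A match on either strand was held by 33.8% of the 32851 RefSeq starts, as did 20 of the 37 starts of the 30 members with an entry. The member windows were also richer in G and C, with a median of 61.6% against 52.4%. GC content was 64.8% in the Prox1 window, 53.6% in Lhx9, 65.6% in Bsx and 65.2% in Otp. The RefSeq start of Lhx9 lies 6133 bases inside the 5′ end of the gene as the count table has it, so its window may not be the start used in these cells.

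By territory, all 9 tuberal genes were lower on d14+3 in both diets, with median log2 differences of -0.34 in Control and -0.27 in ExpOF mice. An unadjusted p-value under 0.05 was reached by 5 of the 9 in Control mice (Bsx, Fezf1, Hmx2, Nkx2-1, Nr5a1) and by 5 in ExpOF mice (Bsx, Nkx2-1, Isl1, Fezf1, Tbx3). Nkx2-1, which specifies the ventral hypothalamus, averaged 18.8 ± 3.5 (SD, n = 5) in Control d14, 17.9 ± 1.6 (SD, n = 6) in ExpOF d14, 14.8 ± 1.3 (SD, n = 6) in Control d14+3 and 13.9 ± 2.5 CPM (SD, n = 6) in ExpOF d14+3. Its log2 difference averaged over diets was -0.35 (edgeR adjusted p = 0.0146), and that of Fezf1 -0.32 (adjusted p = 0.0185).

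Among the 3 neuroendocrine genes, only Otp was called. Sim1 had a difference of -0.45 in ExpOF and -0.13 in Control mice, and Pou3f2 -0.20 and 0.04, none with an unadjusted p-value under 0.05. The anterior and optic genes were lower in 4 of 4 cases in ExpOF mice, of which Vax1, Lhx1 and Six3 had an unadjusted p-value under 0.05, and in 3 of 4 in Control mice, where 0 did. Lhx1, a LIM-homeobox factor of the suprachiasmatic nucleus, was lower in every ExpOF d14+3 mouse than in any ExpOF d14 mouse. It was the only member without overlap in that comparison (0.832% of all genes), whereas the Control comparison had 2, Prox1 and Bsx (1.58% of all genes). Vax1 measured 2.01, 2.67 and 2.94 CPM as lowest, median and highest in ExpOF d14 and 1.18, 1.67 and 2.13 CPM in ExpOF d14+3, a log2 difference of -0.58 (SE 0.16, edgeR adjusted p = 0.140, exact permutation p = 0.00866). In Control mice its difference was -0.12.

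All 6 GABAergic genes were lower on d14+3 in ExpOF mice, 4 of them (Dlx1, Dlx6, Dlx5, Dlx6os1) with an unadjusted p-value under 0.05. In Control mice 3 of the 6 were lower, Dlx2 and Dlx1 with such a p-value. The 6 mammillary and posterior genes had 0 members with an unadjusted p-value under 0.05 in either diet: all 6 were lower in Control mice (median -0.25), and 3 of 6 in ExpOF mice (median -0.02). Of the genes listed under the ventricular wall, Lhx2 was higher with an unadjusted p-value under 0.05 in both diets. Across mice, the member most like Lhx2 was Lhx9 (r = 0.75), while its r with Rax was 0.28. Rax had differences of -0.35 in Control and -0.39 in ExpOF mice, neither with such a p-value, and its sign was negative in July and positive in September mice of both diets. Of the genes found in several territories, Sox14 was lower in Control mice (-0.53, unadjusted p = 0.00784 and adjusted p = 0.187 by edgeR) and had a difference of -0.33 in ExpOF mice (unadjusted p = 0.0814), while Nr2f2, Meis2, Onecut2 and Nkx2-2 had an unadjusted p-value over 0.05 in both.

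Within the 4 combinations of cohort and diet, 3 members (Lhx2, Lhx9, Prox1) were higher on d14+3 in all 4 and 16 were lower in all 4, namely Bsx, Dlx1, Dlx6, Fezf1, Foxa1, Hmx2, Hmx3, Isl1, Lhx1, Nkx2-1, Nkx2-4, Otp, Sim1, Six6, Sox14 and Tbx3. The other 18 had mixed signs. Each of these comparisons rests on 2 or 3 mice per side and carries no test.

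Transcription factors and markers of neighbouring tissue moved with the same day difference. All 7 thalamic transcription factors listed (Tcf7l2, Lef1, Gbx2, Rorb, Zic1, Zic4, Foxp2) were higher on d14+3 with an unadjusted p-value under 0.05 in both diets, with a median log2 difference of 0.82 in Control and 0.38 in ExpOF mice. In Control mice Zic1 (0.89, edgeR adjusted p = 0.0107) and Rorb (0.39, adjusted p = 0.0137) were called, and averaged over diets all 7 were. Their summed level ranged from 150.1 to 259.0 CPM in Control d14, from 153.0 to 273.7 in ExpOF d14, from 239.3 to 387.9 in Control d14+3 and from 229.1 to 369.4 CPM in ExpOF d14+3. Of 6 genes listed as thalamic neuron markers, Prkcd, Ntng1, Slc17a6, Rgs16 and Plekhg1 had an unadjusted p-value under 0.05 on the higher side in both diets. Whether these genes are confined to the thalamus was not tested. Calb2 did not, with log2 differences of -0.02 in Control and 0.16 in ExpOF mice. Calb2 and Slc17a6 had the highest levels of the 6, with Control d14 means of 351.3 and 293.1 CPM, and so weigh most in their sum. The sum is therefore not a measure of thalamic content. The sum of the 6 ranged from 701.7 to 1160 CPM in Control d14 and from 992.5 to 1481 CPM in Control d14+3. In ExpOF mice these sums ranged from 723.9 to 987.9 CPM on d14 and from 936.5 to 1425 CPM on d14+3. None of the 7 thalamic factors and none of the 6 markers was at 0 in any group.

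The 15 tested hypothalamic neuropeptide and enzyme genes went the other way. In Control mice 13 of 15 were lower on d14+3, 8 of them with an unadjusted p-value under 0.05 and 2 called (Agrp at -0.75 and Hdc at -0.48). In ExpOF mice 15 of 15 were lower, 4 with such a p-value. Their sum ranged from 881.4 to 1510 CPM in Control d14, from 806.7 to 1086 in ExpOF d14, from 684.1 to 1034 in Control d14+3 and from 622.3 to 887.2 CPM in ExpOF d14+3. The RIN was lower on d14+3 than on d14 by the means given above, by more in Control than in ExpOF mice.

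Markers of other neighbouring tissue and cells were read in the same comparisons. In Control mice 5 of 7 choroid plexus markers were lower on d14+3 with an unadjusted p-value under 0.05 (median of the 7, -1.51), while in ExpOF mice all 7 had positive differences, 1 with such a p-value. The choroid plexus sum reached 3068 CPM in 1 Control d14 mouse, against a group median of 46.1 CPM, and 1311 CPM in 1 ExpOF d14+3 mouse, against 49.1 CPM. Of the 4 midbrain dopamine markers tested 3 were lower in Control mice at that limit, and Ddc, the decarboxylase of dopamine synthesis, was called (-0.41, edgeR adjusted p = 0.0301). In ExpOF mice all 4 had positive differences (median 0.13), 0 of them with such a p-value. The sum of the 4 reached 344.6 CPM in 1 Control d14 mouse, against a group median of 160.4 CPM. The pituitary hormone gene Gh was also called lower in Control mice (adjusted p = 0.0300), with a pituitary sum of up to 96.5 CPM in Control d14 and of up to 2.60 CPM in Control d14+3. Among 7 tanycyte and ependymal genes, Dio2 was called higher (0.61) and Col23a1 lower (-0.44) in Control mice. The 6 oligodendrocyte genes had positive differences in both diets, with medians of 0.14 and 0.17, 2 of them with an unadjusted p-value under 0.05 in each diet. At that limit 2 of 7 striatal and 3 of 7 leptomeningeal markers were lower in Control mice, and of 5 cortical and hippocampal markers 1 was higher and 1 lower. In ExpOF mice 4 striatal markers were lower, 0 leptomeningeal markers passed and 1 cortical and hippocampal marker was higher. Averaged over diets, 2 striatal markers were called lower and 1 cortical and hippocampal marker higher. Of those 5, Slc17a7 rose most, with means of 15.1 CPM in Control d14, 43.9 in Control d14+3, 9.48 in ExpOF d14 and 35.5 in ExpOF d14+3. Counts of calls without libraries of low RIN are given at the end. For RIN as a covariate only the limit of 1.5 times is given there, not the counts. Beyond these refits, the part of RIN and of the marker values in the day differences of the 37 genes was not tested.

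Other regional factors, from lists outside the 37, were read in the same way. Among 16 further hypothalamic transcription factors, 0 were called in either diet or in the averaged contrast. An unadjusted p-value under 0.05 was reached by 3 in Control mice and 1 in ExpOF mice, all lower, and by 3 in the averaged contrast, 2 of them lower. Their median log2 difference was -0.04 in both Control and ExpOF mice, with 11 of 16 and 10 of 16 below 0, beside -0.19 and -0.21 for the 37 members. Of 13 telencephalic factors tested (Emx1 was not), 1 in Control mice, Gbx1, was higher and 3 in ExpOF mice were lower at an unadjusted p-value under 0.05. Among the 7 midbrain and hindbrain factors tested, Pax7 in Control mice was lower and Otx2 in ExpOF mice higher at that limit.

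The comparison of overfed with control mice on d14 asked what 14 days of overfeeding had done. 0 of 37 members were called (edgeR, adjusted p-value under 0.05), where 0.00527% of all genes were. An unadjusted p-value under 0.05 was reached by 8 members, against 26.7% of all genes: Dlx6os1, Lhx1, Pou3f2, Meis2, Sim1 and Lhx6 were higher and Dlx2 and Nkx2-2 lower in ExpOF mice. That count is no larger than the share among all genes. The ExpOF and Control mice did not overlap in Dlx6os1, Lhx1 and Pou3f2, 3 of 37 members, where 2.50% of all genes did not overlap. The number of genes called depended on the test: DESeq2 called 166 on d14, with Dlx6os1 the 1 member among them.

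Dlx6os1, a long non-coding RNA transcribed antisense to Dlx6 from the Dlx5 and Dlx6 locus, showed the smallest p-value. It measured 6.01, 4.69, 4.26, 3.18 and 3.59 CPM in Control d14 and 6.11, 7.78 and 10.3 CPM as lowest, median and highest in ExpOF d14. Every ExpOF mouse was above every Control mouse, by a small margin for the highest Control mouse. The log2 difference was 0.83 (SE 0.20, edgeR adjusted p = 0.135, exact permutation p = 0.00216, the smallest that 462 arrangements allow), and it was 0.91 in July and 0.75 in September mice. The gene was picked for its edgeR p-value on these same mice, and the permutation p-value is not adjusted for that choice. On d14+3 the levels were 2.82, 4.76 and 6.19 CPM in Control and 3.63, 6.29 and 6.95 CPM in ExpOF mice, a log2 difference of 0.36 (SE 0.19, adjusted p = 0.726). Dlx6os1 (ENSMUSG00000090063, chr6:6820189-6871592, minus strand) overlaps Dlx6 on the opposite strand, and whether counting used the strand is not given in the sources used here, so reads from the overlap may be divided between them. Dlx6 itself differed by -0.012 (log2, ExpOF minus Control) on d14.

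Lhx1 measured 10.5, 9.70, 11, 9.24 and 8.79 CPM in Control d14 and 11.3, 12.2 and 12.5 CPM as lowest, median and highest in ExpOF d14. All ExpOF mice were higher, with a log2 difference of 0.29 (SE 0.11, edgeR adjusted p = 0.138, exact permutation p = 0.00216). For Pou3f2, a POU factor of neuroendocrine neurons, the Control d14 values were 25.3, 20.8, 22, 15.9 and 19.4 CPM and the ExpOF d14 values ran from 25.7 through 26.8 to 27.7 CPM. Its log2 difference was 0.37 (edgeR adjusted p = 0.140).

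Sim1, on which paraventricular neurons depend, was at 16.9, 8.28, 13.2, 6.91 and 8.99 CPM in Control d14 and between 14.1 and 18.4 (median 15.4) CPM in ExpOF d14. The groups overlapped through Control d14 replicate 1, and the log2 difference was 0.55 (SE 0.25, edgeR adjusted p = 0.166). Meis2 had Control d14 values of 34.8, 32.5, 30.3, 27.7 and 20.1 CPM against 29.7, 34.2 and 41.6 CPM as lowest, median and highest in ExpOF d14. Lhx6, a factor of GABAergic interneurons and of the zona incerta, had Control d14 values of 19.6, 17.9, 18.5, 13.3 and 9.28 CPM against 12.1, 23.5 and 28.0 CPM. Dlx2 was lower in ExpOF mice, at 9.04, 13.5, 11.7, 9.14 and 12.3 CPM in Control d14 and 8.10, 8.79 and 10.1 CPM in ExpOF d14, with a log2 difference of -0.33 (SE 0.12, edgeR adjusted p = 0.140, exact permutation p = 0.0368).

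Without Control d14 replicate 1, 6 members were called on d14 (Dlx2, Dlx6os1, Lhx1, Meis2, Pou3f2 and Sim1), in a fit that called 4220 genes. Without any other library 0 were. Beside these values, 7 of the 15 hypothalamic neuropeptide genes had an unadjusted p-value under 0.05 on d14, all lower in ExpOF mice, and 5 of the 13 telencephalic factors were higher and 2 lower. Of 7 choroid plexus markers 5 were lower in ExpOF mice at that limit (median of the 7, -1.60), as were 3 of 4 midbrain dopamine markers (median -0.54). All 7 midbrain and hindbrain factors had negative differences, 2 of them with such a p-value. The RIN was higher in ExpOF d14 than in Control d14 by the means given above. Beyond the refits for RIN given at the end, the part of these in the member values was not tested.

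**Figure D4:**
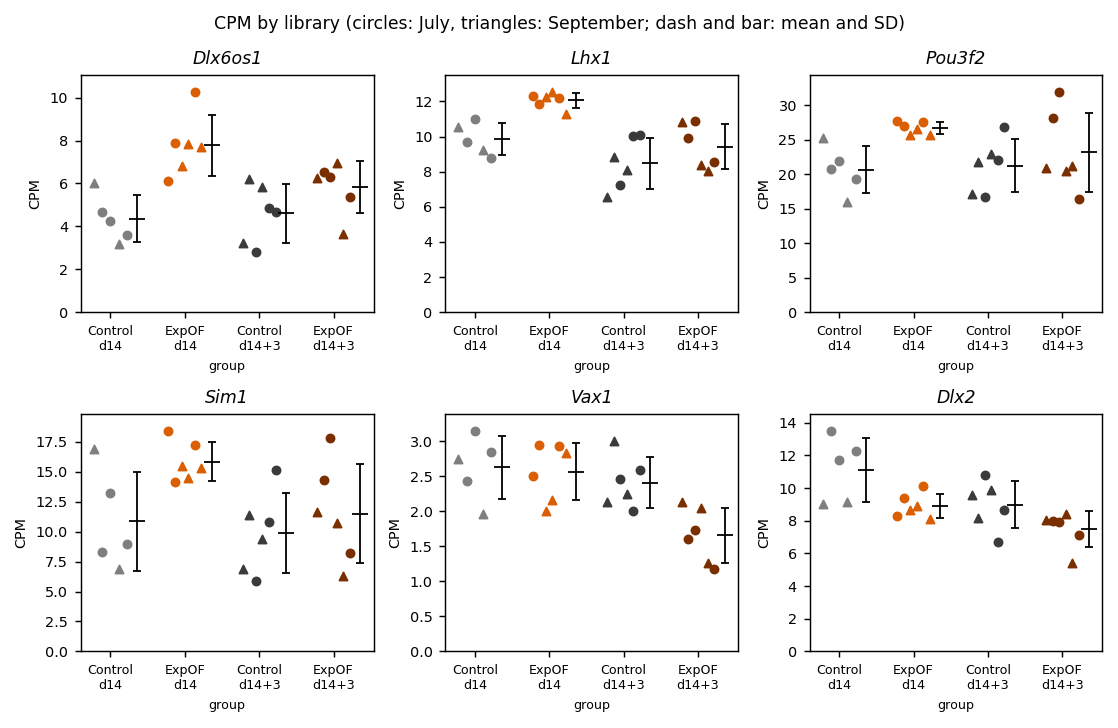
CPM of Dlx6os1, Lhx1, Pou3f2, Sim1, Vax1 and Dlx2 in each of the 23 libraries by group, with circles for July and triangles for September mice and a dash and bar for the mean and SD. On d14 the ExpOF mice lie above all Control mice for the first 3 genes, and on d14+3 most ExpOF mice lie below the Control mice for Vax1.

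On d14+3, 3 days into recovery, 0 of 37 members were called between ExpOF and Control mice (0% of all genes), and 3 had an unadjusted p-value under 0.05 (7.11% of all genes), all lower in ExpOF mice. No member was without overlap (0.421% of all genes). The smallest p-value belonged to Vax1, a homeobox factor of the optic and suprachiasmatic region. It ranged from 2.0 through 2.35 to 3.0 CPM in Control d14+3 and from 1.18 through 1.67 to 2.13 CPM in ExpOF d14+3, so that the groups overlapped only at their edges. The log2 difference was -0.52 (SE 0.16, edgeR adjusted p = 0.421, unadjusted exact permutation p = 0.00866), -0.62 in July and -0.44 in September mice. On d14 Vax1 was at 2.75, 2.44, 3.14, 1.96 and 2.84 CPM in Control mice and had a mean of 2.56 ± 0.41 CPM (SD, n = 6) in ExpOF mice.

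Dlx2 ranged from 6.71 through 9.14 to 10.8 CPM in Control d14+3 and from 5.39 through 7.96 to 8.40 CPM in ExpOF d14+3, a log2 difference of -0.26 (exact permutation p = 0.0887). Nkx2-4, a close relative of Nkx2-1, ranged from 1.74 through 2.93 to 3.26 CPM and from 1.68 through 2.09 to 2.56 CPM, a difference of -0.33 (exact permutation p = 0.0844). On d14 its values were 3.08, 3.86, 2.28, 2.61 and 3.48 CPM in Control mice and 2.01, 2.55 and 2.95 CPM as lowest, median and highest in ExpOF mice.

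The overfeeding-by-day interaction, which tests whether the diet difference itself changed between the days, called 0 members and 0% of all genes. At an unadjusted p-value under 0.05 it held Six3 (-0.33, edgeR adjusted p = 0.903) and Meis2 (-0.34, adjusted p = 0.903), where 4.42% of all genes passed. Six3 was at 23.9, 26.8, 22.7, 18.3 and 23.0 CPM in Control d14 and 21.4, 24.3 and 29.6 CPM as lowest, median and highest in ExpOF d14. On d14+3 it was at 21.6, 24.7 and 26.9 CPM in Control and 19.6, 20.8 and 25 CPM in ExpOF mice. The groups overlapped on both days. The Vax1 interaction was -0.46 (SE 0.23, adjusted p = 0.903), so the Vax1 difference on d14+3 was not shown to differ from that on d14.

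Between the cohorts, with the group held in the model, 0 of 37 members and 0% of all genes were called. An unadjusted p-value under 0.05 was found for 9 members (3.88% of all genes), of which 8 were lower in September mice (Foxa1, Hmx2, Otp, Barhl1, Lmx1b, Lmx1a, Nkx2-1, Fezf1) and Lhx6 was higher. The log2 differences, September minus July, were -0.36 (SE 0.11) for Foxa1, -0.37 (SE 0.13) for Hmx2, -0.37 (SE 0.14) for Barhl1 and 0.35 (SE 0.15) for Lhx6. Of the 6 mammillary and posterior genes 4 were in this set, and all 6 were lower in September. In the same comparison 6 of 7 choroid plexus and 6 of 7 leptomeningeal markers were higher in September at an unadjusted p-value under 0.05, while 0 of 7 thalamic factors passed. Of the 15 hypothalamic neuropeptide genes 13 had negative differences, 4 of them with such a p-value, and of the 37 members 32 had negative differences. The part of these in the cohort values was not tested.

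Foxa1, a forkhead factor of dopaminergic and subthalamic neurons, ranged over the 4 groups from a lowest library of 1.67 CPM in Control d14+3 to a highest of 3.87 CPM in ExpOF d14. Its Control d14 values were 2.19, 3.17, 2.17, 3.72 and 3.36 CPM. Hmx2, of the arcuate growth hormone releasing hormone neurons, was at 1.86, 2.81, 1.90, 1.22 and 2.41 CPM in Control d14, and between 1.24 and 1.41 CPM in Control d14+3. Barhl1 was at 1.72, 2.94, 2.48, 2.07 and 2.33 CPM in Control d14, at 1.29, 1.77 and 2.11 CPM as lowest, median and highest in ExpOF d14, at 1.17, 2.0 and 3.67 CPM in Control d14+3 and at 1.27, 1.95 and 2.40 CPM in ExpOF d14+3. Onecut2, the fourth most variable member, was at 13.8, 7.77, 11.3, 6.47 and 9.42 CPM in Control d14 and at 9.74, 12.9 and 13.8 CPM as lowest, median and highest in ExpOF d14.

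Whether genes of 1 territory varied together from mouse to mouse was examined in 15 pairs after the group means had been subtracted (23 mice, Pearson r and Spearman rho, two-sided permutation tests). No pair passed after Benjamini-Hochberg adjustment, the smallest adjusted p being 0.0729. All 9 pairs within a territory had a positive r, from 0.05 to 0.53 with a median of 0.43, and so had all 6 pairs across territories, from 0.01 to 0.48 with a median of 0.11. Unadjusted permutation p-values under 0.05 were found for 5 of the 9 and 1 of the 6.

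Dlx5 and Dlx6, neighbours on chromosome 6, had the highest value (r = 0.53, permutation p = 0.00918, rho = 0.54, permutation p = 0.0080), which was 0.61 without the 2 mice farthest from the median, 0.36 within July and 0.75 within September mice. Six3 and Six6 had r = 0.49 (permutation p = 0.0180, rho = 0.40, permutation p = 0.0648), falling to 0.36 without the 2 farthest mice. Nr5a1 and Fezf1 of the ventromedial nucleus had r = 0.48 (permutation p = 0.0194, rho = 0.44, permutation p = 0.0361) and 0.55 without the 2 farthest. Sim1 and Otp had r = 0.48 (permutation p = 0.0188, rho = 0.38, permutation p = 0.0779), with 0.60 in July and 0.80 in September mice but -0.09 and 0.53 in the 2 extraction rounds. Foxb1 and Lmx1a, both mammillary or posterior, had r = 0.05 (permutation p = 0.833, rho = 0.12, permutation p = 0.586), 0.09 in July and -0.87 in September mice. Across territories, Nkx2-1 and Foxb1 had r = 0.48 (permutation p = 0.0244, rho = 0.55, permutation p = 0.00812), and 0.34 without the 2 farthest mice.

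**Figure D5:**
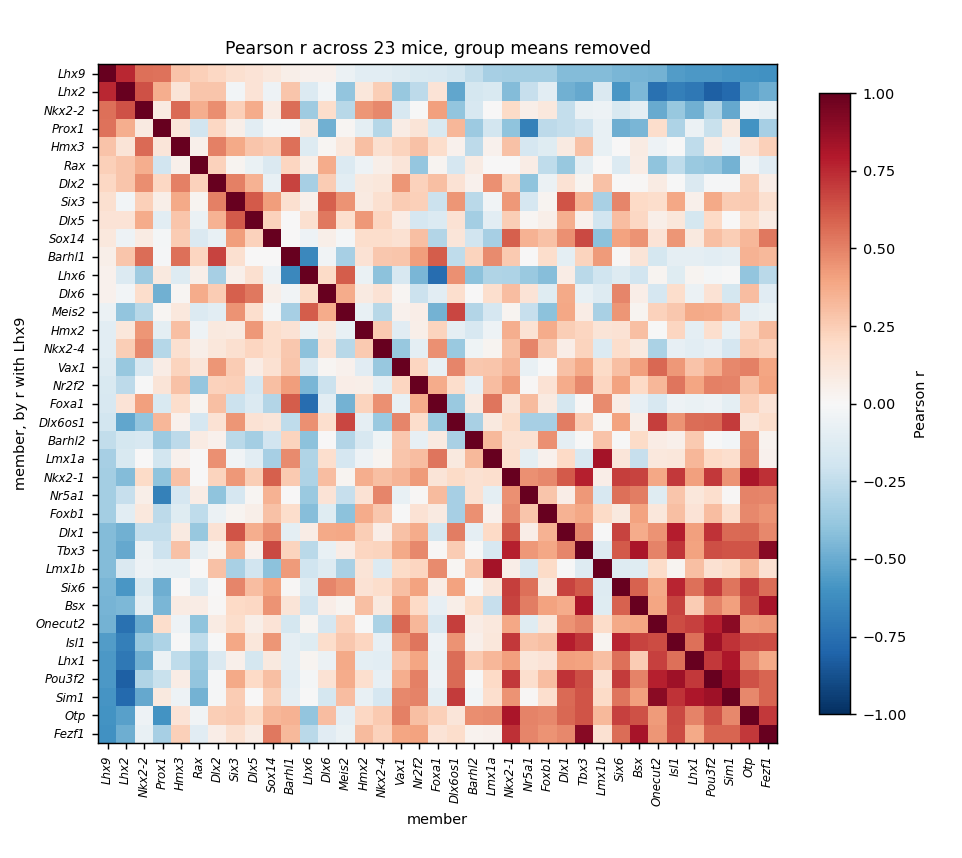
Pearson r between each pair of the 37 genes over 23 mice after subtracting group means, ordered by r with Lhx9, with the colour scale running from negative to positive. The 666 values run from -0.82 (Lhx2 with Pou3f2) to 0.91 (Tbx3 with Fezf1) with a median of 0.12, and 430 are positive.

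Over all 666 pairs of members, given as a description, the highest r joined Tbx3 with Fezf1 (0.91), both tuberal, and Sim1 with Onecut2 (0.91). Sim1 and Pou3f2 had 0.85, Isl1 and Pou3f2 0.85, Lmx1a and Lmx1b 0.83, Bsx and Fezf1 0.82, and Nkx2-1 and Otp 0.82. Lhx9 and Lhx2 had 0.75. The lowest value was -0.82 between Lhx2 and Pou3f2, and Lhx2 had the lowest r of Nkx2-1, Sim1, Lhx1, Six6, Tbx3 and Vax1 as well. These libraries share depth, RIN and dissection, and genes of 1 library are not independent.

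Seen against all genes with a mean of at least 1 CPM (15819 per anchor, 15820 for Rax), the gene most like Sim1 was Cacna2d1 (r = 0.98), followed by Clip4, Tia1, Gpr101 and Mbnl1. For Nr5a1 it was Mmaa (0.74), followed by 9430053O09Rik, Spint1, Mterf1b and Optc. Foxb1 was most like Prph (0.76), Ccn3, Rpusd4, Zcchc3 and Cckbr, and Lhx1 most like Zfp612 (0.87), Pias1, Ate1, Uty and Cpsf7. Rax was most like Cirbp (0.85), Lars, Pole3, 9030407P20Rik and Whamm, and Dlx5 most like E2f6 (0.78), Map2k1, Sowaha, Mphosph8 and Nup35. None of these was a member or stood on a list of regional genes.

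Lhx9 and Prox1 were added as anchors after the data were seen. Lhx9 was most like Zic2 (0.95), Gbx2 (0.94), Zic1 (0.93), Hlf and Kcns2, of which Gbx2 and Zic1 are on the thalamic list. Its r with the 7 thalamic factors ran from 0.32 to 0.94 with a median of 0.82, and with the 6 thalamic markers from 0.63 to 0.88. Prox1 was most like Agtpbp1 (0.85), Dlc1, Gpr63, Lrrn1 and Necab1. It had a positive r with all 7 thalamic factors, from 0.25 to 0.69, and with 0 of the 15 hypothalamic neuropeptide genes. Nr5a1 was the reverse, with a negative r to all 7 thalamic factors and a positive r to 14 of the 15 neuropeptide genes. Foxb1 had a positive r to 1 of the 7 and to 14 of the 15. Lhx9 had a positive r to 8 of the 15 neuropeptide genes (median 0.03). Sim1 and Lhx1 had a positive r to 1 and 0 of the 7 thalamic factors, but to only 5 and 6 of the 15 neuropeptide genes (medians -0.26 and -0.36). Rax and Dlx5 each had a positive r to 5 of the 7 and 12 of the 15. These values are within groups, after the day difference was removed with the group means.

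RIN was related to a few members. Over the 23 mice and 37 members, with group means subtracted, r ran from -0.46 (Lhx1) to 0.64 (Dlx2), and 2 passed after adjustment, Dlx2 (r = 0.64, permutation test, adjusted p = 0.0331) and Barhl1 (r = 0.61, adjusted p = 0.0331), both higher in mice of higher RIN. By Spearman's rho 0 passed (smallest adjusted permutation p = 0.295). An unadjusted permutation p-value under 0.05 for r was found for 7 members. Among them were Lhx2 (r = 0.55), Lhx9 (r = 0.43) and Lhx1, each called in the averaged day contrast. Within July and September mice r was 0.78 and -0.13 for Lhx2, 0.76 and -0.27 for Lhx9, and -0.86 and -0.01 for Lhx1. It was 0.71 and 0.21 for Dlx2 and 0.77 and 0.72 for Barhl1.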

How the data were processed

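The submitters prepared poly-A selected, stranded libraries from hypothalamic RNA of 24 mice, used STAR to align the paired reads to mm10, and obtained gene counts with featureCounts 1.6.4 on GENCODE vM22. The authors deposited raw counts per gene, without normalization. Whether counting used the strand is not given in the sources used here. The table maps every column to a sample, with 0 columns unmapped, and its start, end and length columns were used for positions and for CPM per kilobase.

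The left-out library was identified by the study's supplementary mean expression. Genes were filtered with edgeR's filterByExpr (minimum count 10, minimum total 15). Counts were tested with edgeR 4.0.16 (robust quasi-likelihood F-test, TMM, R 4.3.3), with all 4 groups in 1 fit, the cohort comparison adding a cohort term. P-values were adjusted over all 18992 genes, and a value under 0.05 was a call. DESeq2 1.42.0 was an alternative. Correlations used log2 CPM with a prior count of 2 and 100000 permutations (Python 3.11.15, numpy 2.4.6, scipy 1.17.1). Scripts were tested on simulated data. No within-group pair of libraries was a duplicate.

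The 37 members, the gene lists and the pairs were chosen with earlier results of these data known. Some listed genes outside the members are not reported here. Library values are given for the 3 members with the smallest p-value in each comparison and the 5 with the largest biological coefficient of variation. Lhx2, Nkx2-1 and Pou3f2 were added after their values were seen, as were the averaged day contrast, the RIN correlation, the promoter motif and the anchors Lhx9 and Prox1. Nothing in the sources says more of the replicates than 1 mouse per library. Replicate numbers did not pair the mice: deviations of same-numbered mice correlated between -0.23 and 0.22. Promoters are RefSeq entries on GRCm38.p6, and 30 of 37 members matched.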

Additional observations from a re-analysis of the deposited data

Results flagged for a closer look

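2 of the 68 sets of member values tested within a group held a mouse far from its group, where chance gives about 1 in 20. Hmx2 was at 2.39 CPM in ExpOF d14 replicate 2, with the next mouse at 1.61 and the lowest at 1.24 CPM. Onecut2 was at 9.74 CPM in ExpOF d14 replicate 4, with the next at 12.6 and the highest at 13.8 CPM.

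The Control d14 library that was left out of the comparisons gave a level above the other 23 for 7 of the 37 members. Its CPM was scaled with all 24 libraries, and that of the others with the 23 alone, so the scales are not the same. Rax was at 5.22 CPM in the left-out library against a highest of 1.98 CPM in the other 23, Lmx1a at 10.2 against 6.02, Barhl1 at 6.04 against 3.67 and Nkx2-2 at 15.5 against 10.6 CPM. Dlx6 was at 36.5 against 17.4, Nkx2-4 at 8.91 against 3.86 and Bsx at 12.0 against 9.02 CPM. In the same library 16 of the 37 were below the range of the 5 other Control d14 mice and 8 above it.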

How the results depend on the processing

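Calls on d14+3, of the interaction and of the cohorts were 0 under every alternative and without any 1 library. On d14 there was 1 call (Dlx6os1) by DESeq2, among 166 genes called, and 0 to 6 without 1 library, the 6 among 4220 genes. ExpOF mice between days had 2 (Otp and Prox1) by DESeq2, among 202 genes called. With cohort and extraction round as covariates they had 1 (Prox1), among 78 genes. Without 1 library they had 0 to 3, the 3 (Dlx1, Otp, Prox1) without ExpOF d14+3 replicate 3, among 157 genes. The 4 calls in Control mice became 2 (Bsx and Prox1, among 33 genes called) with a replicate block, though the numbers did not pair the mice. They became 0 with only the groups compared, 0 in July alone and 0 in September alone, each with 0 genes called. Without 1 library they were 2 to 6. The 9 calls of the averaged contrast became 5 with all 24 libraries (359 genes called) and 5 with the replicate block (406 genes). In July alone they became 0 (1 gene called, and 18 members at an unadjusted p-value under 0.05). In September alone 1 was left (Lhx9, among 71 genes). Without 1 library they were 6 to 14, the 14 without Control d14 replicate 5 (823 genes). In that contrast Lhx1 was lost without Control d14 replicate 3 (edgeR adjusted p = 0.061), Lhx2 without any of 5 libraries (highest 0.0564) and Dlx1 without any of 13 (highest 0.0761). Leaving out libraries with a RIN of 8 or lower, chosen after seeing the data, gave 6 calls in Control mice and 11 in the averaged contrast. The 0 pair correlations that passed became 2 without subtracting group means, 3 with all 24 libraries, 5 with RIN regressed out, 5 in September alone and 0 to 2 without 1 library. Other alternatives, among them RIN as a covariate in the edgeR fits, left these counts within 1.5 times. The cause was not tested.

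Of 2400 recomputed fold changes 2274 kept direction and side, 84 were no longer past the threshold, 40 newly passed and 2 reversed, both in September alone: Dlx2 in Control mice between days (0.0281) and Rax in the averaged contrast (0.0649). Signs also reversed for r of Rax and Lhx2 without subtracting group means (-0.00345). With all 24 libraries they reversed for Foxb1 and Lmx1a (-0.15), Barhl1 and Lmx1b (-0.17), Dlx5 and Nr5a1 (-0.0536) and Dlx5 and Foxb1 (-0.0487). With RIN regressed out Sim1 and Nr5a1 gave -0.0864. In July alone Dlx1 and Dlx2 gave -0.15 and Dlx5 and Foxb1 -0.23. In September alone Foxb1 and Lmx1a gave -0.87 and Sim1 and Nr5a1 -0.47. Without 1 library the pairs near 0 ranged from -0.0614 to 0.14 for Foxb1 and Lmx1a, from -0.0839 to 0.31 for Sim1 and Nr5a1, from -0.13 to 0.19 for Dlx5 and Nr5a1, from -0.098 to 0.40 for Dlx5 and Foxb1. Low counts, down to 6 for Rax in 1 library, limit the precision of its fold changes.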
